A study of Mus musculus with 34 samples.

Results

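The genes described here are the erythroid genes of the liver of mouse pups at postnatal day (PND) 15: the globins, the enzyme that commits glycine to heme in red cells, the receptors for iron and for erythropoietin, 2 erythroid transcription factors and the anion exchanger of the red cell membrane. Of 9 genes chosen by symbol (Hba-a1, Hbb-b1, Alas2, Epor, Klf1, Gata1, Tfrc, Slc4a1 and Ahsp), 7 were matched to array probes by their own symbol. No probe carried Hbb-b1, and Hbb-bt, an adult beta-globin gene, stood in for it. Ahsp is not analysed here. The 8 genes analysed, of 16535 named genes on the array, were read by 11 of 41174 probes.

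Red cells arise from progenitors that divide under erythropoietin, acting through its receptor Epor, while the transcription factors Gata1 and Klf1 switch on the globin, heme and membrane genes. Iron for heme enters the erythroblast bound to transferrin, through the receptor Tfrc, and Alas2 starts heme synthesis in the mitochondrion. The liver is the main site of red cell production in the mouse fetus, which passes to bone marrow and spleen around birth, and an unperfused liver also holds circulating red cells and reticulocytes. Thyroid hormone is known to act on erythroid maturation through its nuclear receptors. These arrays measured whole liver, in which fewer cells of a type and less RNA per cell cannot be told apart.

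Livers came from C57BL/6 pups of both sexes, all collected at PND 15, 4 h after an intraperitoneal injection. Control pups (4 males, 4 females) received saline. Hyper pups (5 males, 5 females) received 50 µg thyroxine (T4) and 5 µg triiodothyronine (T3) per 100 g body weight. Hypo pups (4 males, 5 females) received saline after their dams had drunk water with 0.05% methimazole (MMI) and 1% sodium perchlorate, which block hormone synthesis, for 3 days. Hypo+ pups (4 males, 3 females) had the same exposure through the dam, followed by 20 µg T4 and 2 µg T3 per 100 g. Exposure reached the pups through the dam, and the study split off, by their serum T4, injected pups with the highest hormone levels, so that the hypo+ group was in part selected. Each pup's liver RNA (Cy5) was hybridised with a universal mouse reference RNA (Cy3) on an Agilent array, and each value below is the log2 ratio of pup to reference for 1 probe after loess normalization within the array. Levels of different genes cannot be compared on this scale. Nothing in the labels ties a pup to a litter.

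The 34 arrays had median Cy5 signals of 146 to 199 and 60.8% to 79.4% of probes well above background. All 8 genes were well above background in Cy5 on all 34 arrays, with no saturated Cy5 spot, as were 9 of 10 hepatocyte markers. The scanner software marked Cy5 as scaled up from a scan at lower detector gain on 34 arrays for Hbb-bt and on 17 for Hba-a1. For the other genes analysed this held on 0 arrays. Hba-a1 thus mixes 2 scan settings, whose part in the globin values was not tested. Arrays lay on 11 slides scanned on 6 days. Scan day 2 held 8 arrays on 2 slides, 1 pup of each of the 8 groups, and these arrays stood apart in several of the genes described below. In hypo pups Dio1, the thyroid hormone deiodinase, fell by 1.46 on the log2 scale in males (adjusted p = 0.0124, limma) and by 1.77 in females (adjusted p = 0.00923, limma). Thrsp and Me1, also induced by thyroid hormone, were negative and not called in either sex (adjusted p from 0.0768 to 0.468, limma). In hyper pups all 3 were higher than in controls and none was called (1 unadjusted in males, 2 in females, limma), so the hyper label is not checked by them. Of the 9 gene symbols, 7 had a promoter in the RefSeq table of build GRCm38.p6, and Slc4a1 and Ahsp had none there. The 4 printed below are those of the 4 genes that were higher on scan day 2 after loess (Hba-a1 and Epor not so under median centring). On that day 9.72% of all probes were also called higher, and a part of these promoters in the shift was not tested. Each gives the 250 bases before the start of transcription, 5′ to 3′ on the gene's strand, with the matches to the searched motifs in capitals.
Hba-a1 (chr11:32283422-32283671, plus strand): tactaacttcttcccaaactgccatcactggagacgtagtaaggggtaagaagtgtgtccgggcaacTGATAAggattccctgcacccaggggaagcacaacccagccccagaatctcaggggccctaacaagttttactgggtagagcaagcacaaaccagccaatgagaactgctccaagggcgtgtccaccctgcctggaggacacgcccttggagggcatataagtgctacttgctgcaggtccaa
Hbb-bt (chr7:103813924-103814173, minus strand): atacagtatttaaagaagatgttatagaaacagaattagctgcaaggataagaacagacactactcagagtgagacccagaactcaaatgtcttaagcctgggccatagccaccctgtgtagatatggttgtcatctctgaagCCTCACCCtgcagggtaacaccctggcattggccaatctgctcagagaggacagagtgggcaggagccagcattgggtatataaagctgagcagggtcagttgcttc
Alas2 (chrX:150547167-150547416, plus strand): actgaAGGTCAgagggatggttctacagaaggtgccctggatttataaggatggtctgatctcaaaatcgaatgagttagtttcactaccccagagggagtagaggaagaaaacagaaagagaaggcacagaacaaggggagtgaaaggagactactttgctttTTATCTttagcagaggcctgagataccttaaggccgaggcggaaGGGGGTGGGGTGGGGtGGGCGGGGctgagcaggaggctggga
Epor (chr9:21963577-21963826, minus strand): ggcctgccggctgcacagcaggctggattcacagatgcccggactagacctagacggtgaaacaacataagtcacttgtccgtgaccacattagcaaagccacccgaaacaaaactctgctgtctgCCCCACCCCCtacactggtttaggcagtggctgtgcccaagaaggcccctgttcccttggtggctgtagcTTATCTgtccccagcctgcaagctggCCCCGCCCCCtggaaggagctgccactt
The motifs searched on both strands were the GATA motifs AGATAA and TGATAA, the CACCC-type motif CCNCNCCC bound by Klf1-like factors, and AGGTCA, the half-site of nuclear receptors such as the thyroid hormone receptors. Hba-a1 held TGATAA at -183 from the start and none of the other 3 motifs. Hbb-bt held CCNCNCCC at -107. Alas2 held AGGTCA at -245, AGATAA on the antisense strand at -86, and 4 antisense CCNCNCCC matches, some of which overlap, from -42 to -19. Epor held AGATAA on the antisense strand at -54 and 4 CCNCNCCC matches that overlap in pairs. Among 32851 promoters of the same length, AGATAA was present in 9.99%, TGATAA in 7.94%, CCNCNCCC in 45.9% and AGGTCA in 14.0%. No motif was shared by all 4 promoters.

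None of the 8 erythroid genes passed the test in any of the 8 treatment comparisons (limma, Benjamini-Hochberg adjustment over all probes, threshold 0.05). Of the 64 tests, 5 had an unadjusted p under 0.05, beside 2.97% to 9.18% of all probes in the 8 comparisons. The smallest adjusted p was 0.390. Differences ran from -0.71 to 0.43 on the log2 scale, with standard errors (SE) of 0.0398 to 0.334. In males 0 of 8 were called in hypo against control (1 unadjusted), where 0.0971% of all probes were called, 0 of 8 in hyper against control (0 unadjusted, 0.0753% of probes), 0 of 8 in hypo+ against control (1 unadjusted, 0.0267% of probes) and 0 of 8 in hypo+ against hypo (1 unadjusted, 0.369% of probes). In females the counts were 0 of 8 in hypo against control (1 unadjusted, 0.155% of probes), 0 of 8 in hyper against control (0 unadjusted, 0.158% of probes), 0 of 8 in hypo+ against control (0 unadjusted, 0.0219% of probes) and 0 of 8 in hypo+ against hypo (1 unadjusted, 0.556% of probes). So few probes were called anywhere that a count of 0 among 8 genes does not set them apart from the rest of the array. The unadjusted p-values given below are two-sided, describe single genes and did not survive the adjustment.

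**Figure D1:**
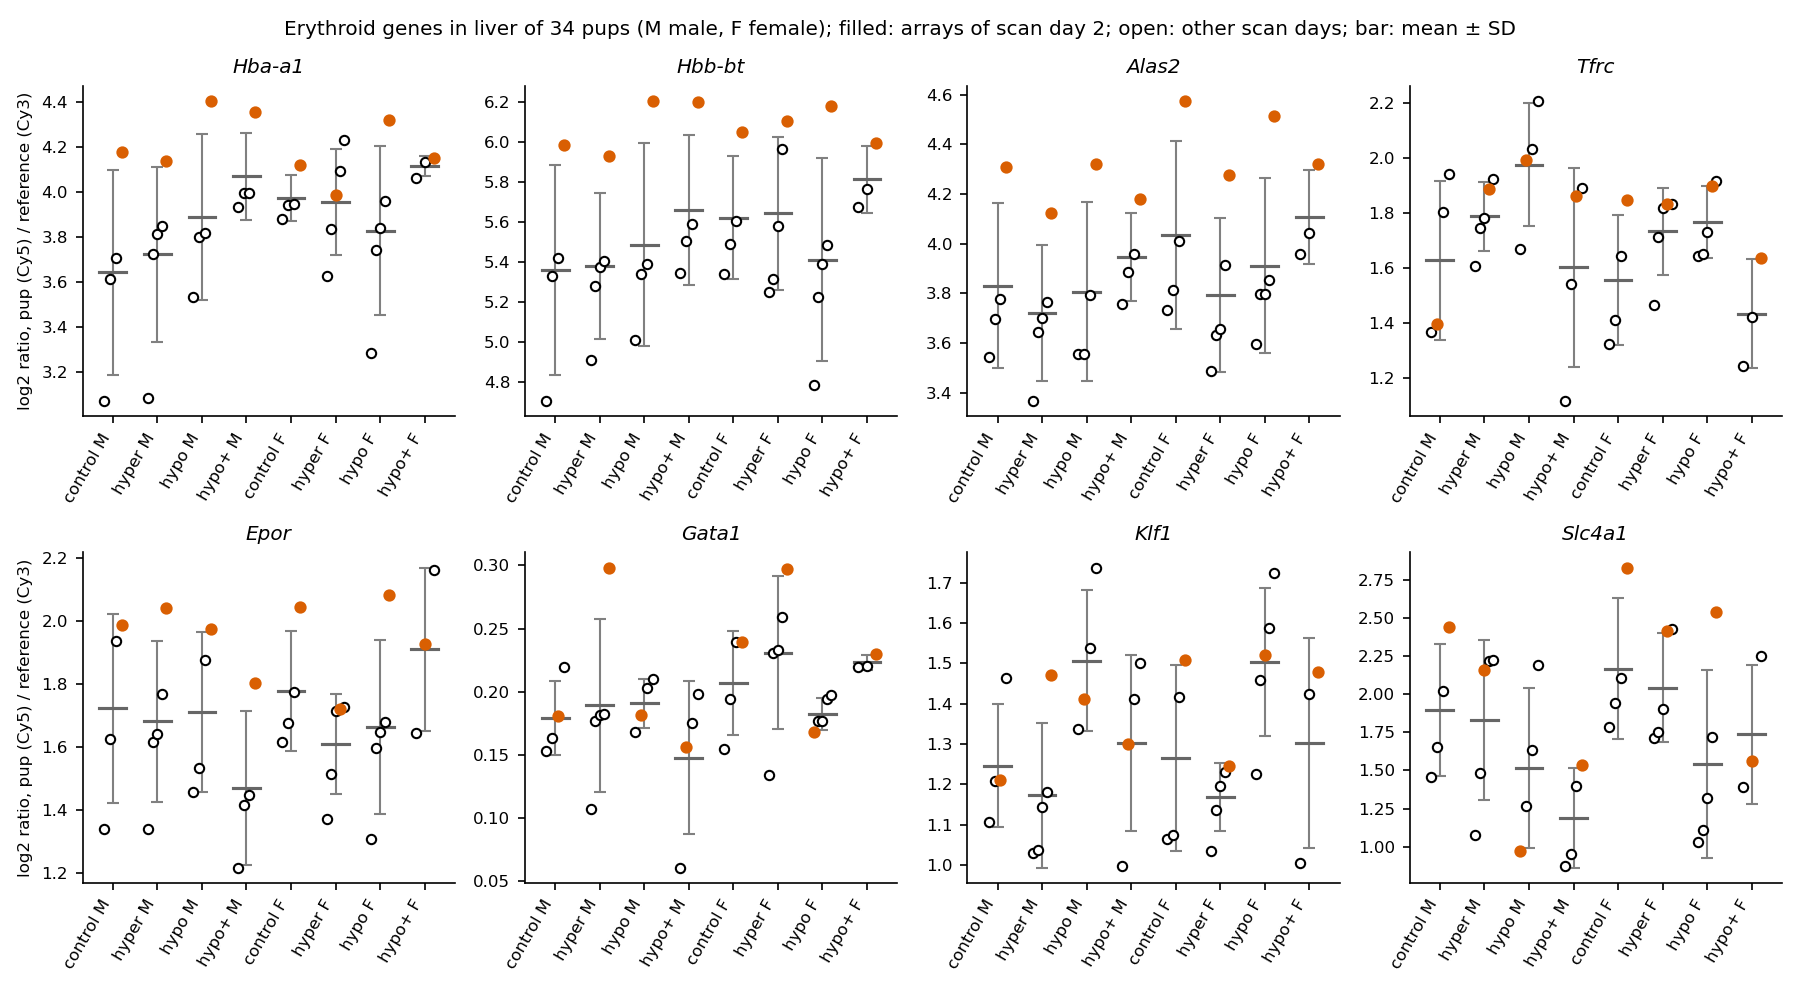
Log2 ratio of pup (Cy5) to reference (Cy3) for each of the 8 erythroid genes, 1 point per pup, in the 8 groups of sex and treatment, with mean ± SD. Filled points are the 8 arrays of scan day 2, whose Alas2 values (4.12 to 4.57) lie above those of the other 26 arrays (3.37 to 4.04).

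Alpha- and beta-globin form adult hemoglobin. In control males the Hba-a1 log2 ratio was 3.07, 4.18, 3.61 and 3.71, and in hypo+ males it was 4.36, 3.99, 4.00 and 3.93. The groups overlapped, since only 1 control male lay above the lowest hypo+ male, and the difference of 0.43 (SE 0.23) was the largest positive one of the 64. In the same comparison 10 of 10 hepatocyte markers and 11 of 14 hepatic iron genes were higher (medians 0.31 and 0.23) and 0 of 11 pancreatic acinar markers (median -2.00), none called. Control females were at 3.88, 4.12, 3.95 and 3.94 and hypo+ females at 4.06, 4.15 and 4.14, which also overlapped (difference 0.14, SE 0.17). For Hbb-bt, control males were at 4.70, 5.99, 5.33 and 5.42 and hypo+ males at 6.20, 5.34, 5.59 and 5.50. The lowest control male was again the pup with the lowest Hba-a1, and the difference was 0.30 (SE 0.28). In females the Hbb-bt difference between hypo+ and hypo was 0.40 (SE 0.25), with hypo pups at 5.39, 6.18, 4.78, 5.22 and 5.48 and hypo+ pups at 5.77, 6.00 and 5.67. A single hypo female lay above all 3 hypo+ females, so these groups overlapped too. The near-identical copies Hba-a2 and Hbb-bs can bind the same probes, so the alpha-globin and beta-globin signals are uncertain between copies. The Hbb-bt probe used was the brightest of 4, and the other 3 spanned 4.21 to 5.93, 3.38 to 4.59 and 3.97 to 5.27 over the 34 pups.

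Alas2, the erythroid-specific first enzyme of heme synthesis, averaged 3.83 ± 0.33 (SD, n = 4) in control, 3.72 ± 0.27 (n = 5) in hyper, 3.81 ± 0.36 (n = 4) in hypo and 3.95 ± 0.18 (n = 4) in hypo+ males. Female means were 4.03 ± 0.38 (n = 4), 3.79 ± 0.31 (n = 5), 3.91 ± 0.35 (n = 5) and 4.11 ± 0.19 (n = 3) in the same order. No difference between treatments passed the test. Within slides, hyper was below control on 4 of 4 slides in males (-0.18 to -0.0093) and on 4 of 4 in females (-0.30 to -0.097). The highest value in each of the 8 groups belonged to the array of scan day 2.

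Tfrc takes up transferrin-bound iron and is abundant on dividing cells as well as on erythroblasts. In hypo males its log2 ratio was 1.67, 1.99, 2.03 and 2.21, in control males 1.80, 1.94, 1.40 and 1.37, and in hypo+ males 1.89, 1.54, 1.86 and 1.12. Hypo males lay mostly at the top and the groups overlapped. In hypo females it was 1.64, 1.73, 1.90, 1.65 and 1.91, in control females 1.41, 1.64, 1.85 and 1.33, and in hypo+ females 1.64, 1.42 and 1.25. All 5 hypo females lay above all 3 hypo+ females, by less than the rounding at the boundary, while hypo and control females overlapped. Hypo+ minus hypo was -0.37 in males (SE 0.16, unadjusted p = 0.038, adjusted p = 0.498, limma) and -0.33 in females (SE 0.12, unadjusted p = 0.0138, adjusted p = 0.390, limma). Without the hypo+ male 761, at 1.12, the male difference was -0.21, and within the 2 male slides that held both groups it averaged -0.129. In a fit of all 34 arrays the mean difference of the sexes was -0.35 (SE 0.11, adjusted p = 0.0683, limma), beside 3.07% of probes called in that comparison. Fits of both sexes took the 34 pups as independent, although males and females may share a dam. With the first 2 digits of the animal number as a random block the mean difference was also -0.35 (adjusted p = 0.0833, limma). Of the 8 genes, only Tfrc and Gata1 had hypo and hypo+ females that did not overlap, beside 5.06% of all probes. In hypo+ pups all 19 measured genes of a proliferation list gave a negative difference against hypo, with medians of -0.39 in males and -0.38 in females, where the medians over all probes were -0.0086 and -0.0052. None of the 19 passed in limma, and 9 in males and 13 in females had an unadjusted p under 0.05, beside 9.18% and 7.76% of all probes. Its part in the Tfrc values was not tested.

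The erythropoietin receptor Epor was at 1.72 ± 0.30 (SD, n = 4) in control, 1.68 ± 0.25 (n = 5) in hyper, 1.71 ± 0.25 (n = 4) in hypo and 1.47 ± 0.24 (n = 4) in hypo+ males. In females the means were 1.78 ± 0.19 (n = 4), 1.61 ± 0.16 (n = 5), 1.66 ± 0.28 (n = 5) and 1.91 ± 0.26 (n = 3). Hypo+ was thus the lowest mean in males and the highest in females, but the test of the difference between sexes in hypo+ against hypo called none of the 8 genes (limma, 1 unadjusted), beside 0% of all probes (868 unadjusted). The same test in the other 3 comparisons called none of the 8 genes either (limma, 0 unadjusted), again beside 0% of probes.

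Klf1 drives the switch to adult globin and red cell membrane genes. In hypo males its log2 ratio was 1.34, 1.41, 1.74 and 1.54, against 1.46, 1.21, 1.21 and 1.11 in control males. In hypo females it was 1.23, 1.52, 1.59, 1.72 and 1.46, against 1.06, 1.51, 1.42 and 1.07 in control females. Hypo pups were on average higher and overlapped with controls in both sexes. The differences were 0.26 (SE 0.12, unadjusted p = 0.0457, adjusted p = 0.949, limma) and 0.24 (SE 0.12), and their mean in the fit of both sexes was 0.25 (SE 0.087, unadjusted p = 0.00746, adjusted p = 0.234, limma). Klf1 was 1 of 3 genes with an unadjusted p under 0.05 there, the others being Tfrc (0.28) and Slc4a1 (-0.50). At that threshold stood 8.51% of all probes. After adjustment none of the erythroid genes was called, beside 1.09% of all probes. Gata1, the other erythroid transcription factor among the members, varied little, from 0.06 to 0.30 over the 34 pups, with each value the mean of 10 spots. Hypo+ females, at 0.22, 0.23 and 0.22, lay above the 5 hypo females, at 0.17 to 0.20, but the difference was 0.04 (SE 0.043).

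Slc4a1, the band 3 anion exchanger of the red cell membrane, gave the most negative difference. Control males were at 1.65, 1.46, 2.45 and 2.02, hyper males at 1.08, 2.22, 1.48, 2.16 and 2.23, hypo males at 1.63, 0.97, 2.19 and 1.27, and hypo+ males at 1.40, 0.87, 1.54 and 0.95. Hypo+ males were low, with 1 of the 4 above the lowest control male. Control females were at 2.11, 1.78, 2.83 and 1.94, hyper females at 1.71, 2.42, 1.75, 1.91 and 2.43, hypo females at 1.11, 1.03, 2.54, 1.32 and 1.72, and hypo+ females at 1.56, 2.25 and 1.39. Of the 5 hypo females, 4 lay below every control female, and the fifth, at 2.54, was the second highest of all females. Hypo+ minus control was -0.71 in males (SE 0.30, unadjusted p = 0.0291, adjusted p = 0.593, limma) and -0.43 in females (SE 0.33). Hypo minus control was -0.38 in males (SE 0.30) and -0.62 in females (SE 0.29, unadjusted p = 0.049, limma). The same controls served both comparisons. These 4 differences were negative under each normalization tried, and none passed the adjusted test. Without the arrays of scan day 2, hypo minus control in males was -0.0146 and hypo+ minus control in females -0.121. Leaving out 1 pup at a time gave -0.60 to -0.20 and -0.69 to -0.21 for these, -0.87 to -0.40 for hypo females and -0.85 to -0.52 for hypo+ males. In hypo+ against control males the 11 pancreatic acinar markers had a median difference of -2.00 (0 higher), the 10 hepatocyte markers 0.31 (10 higher) and the 19 proliferation genes -0.39 (0 higher). None of these markers passed in limma, with 9, 1 and 10 at an unadjusted p under 0.05, beside 7.56% of all probes. Acinar medians against control were -1.96 in hyper and -2.01 in hypo males, and from -0.96 to -0.13 in the 3 female comparisons. Their part in the Slc4a1 and globin values was not tested.

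**Figure D2:**
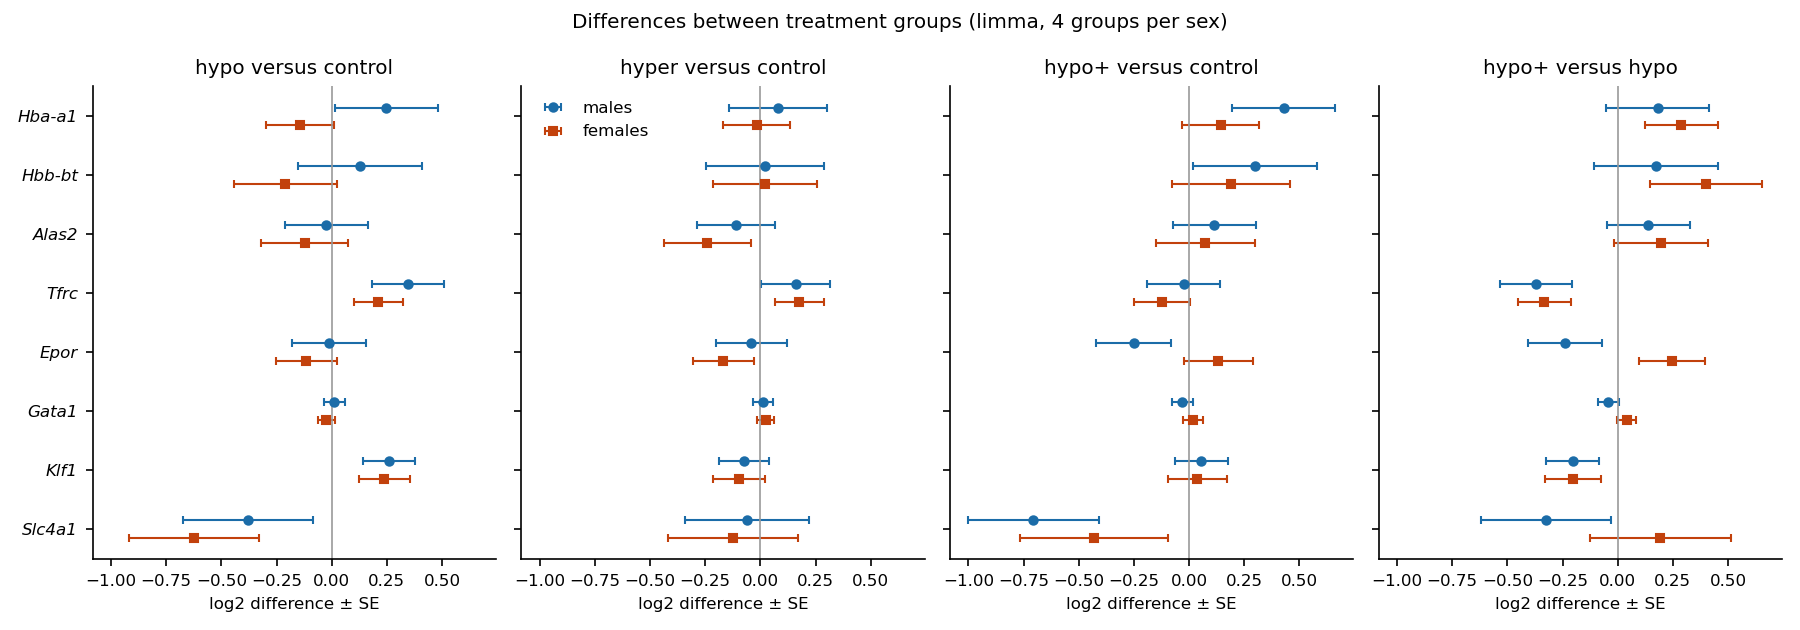
Log2 difference between treatment groups ± SE for the 8 erythroid genes, males and females side by side, in the 4 comparisons. None passed the adjusted test, and the values run from -0.71 (Slc4a1, hypo+ against control, males) to 0.43 (Hba-a1, the same comparison).

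The wider erythroid program was described by 6 lists with 66 measured genes (other globins, heme synthesis, membrane and blood group proteins, transcription factors, late enzymes, iron uptake). In limma 0 of the 66 were called in each of the 8 treatment comparisons, and the counts with an unadjusted p under 0.05 were 4, 1, 10 and 11 in males and 4, 3, 6 and 8 in females, for hypo, hyper and hypo+ against control and hypo+ against hypo. The shares of all probes at that threshold were 5.2%, 2.97%, 7.56% and 9.18% in males and 4.72%, 6.16%, 4.79% and 7.76% in females. Of 18 membrane genes, 1 was higher in hypo than control males (median -0.05) and 5 in females (median -0.09), none past the test. In the list of erythropoietin signalling Stat5a, Stat5b and Egln3 were called, at most 3 of 17 genes in a comparison. That count was reached in hypo+ against hypo in both sexes (0.369% and 0.556% of all probes called) and in hypo against control in females (0.155%). Stat5a, a transcription factor downstream of Epor and of other cytokine receptors, rose in hyper pups by 0.81 in males (adjusted p = 0.0223, limma) and by 0.77 in females (adjusted p = 0.0382, limma). In hypo females Stat5a fell by 0.76 and Stat5b by 0.55 (adjusted p = 0.0388 and 0.0169, limma). In hypo+ against hypo Stat5a was higher by 1.08 and 1.40 and Stat5b by 0.78 in both sexes (adjusted p from 0.000216 to 0.00475, limma). Egln3, an oxygen-sensing prolyl hydroxylase, rose in hypo pups by 0.84 in males (adjusted p = 0.0253, limma) and by 0.71 in females (adjusted p = 0.00676, limma). Hypo+ minus hypo was -0.71 in males and -0.79 in females for Egln3 (adjusted p = 0.0315 and 0.0014, limma). In the list of hepatic iron genes, 1 of 14 was called: Bmp6, which induces hepcidin, was higher in hypo than control females by 0.50 (adjusted p = 0.0399, limma). Stat5a, Stat5b and Egln3 are not specific to the erythroid lineage.

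Pups of the same group differed more in 7 of the 8 erythroid genes than in the median probe. The pooled SD within groups was 0.477 for Slc4a1, which stood at percentile 98.9 of the 22221 probes well above background on all arrays, 0.416 for Hbb-bt (percentile 98.0), 0.314 for Hba-a1 (94.4), 0.309 for Alas2 (94.1), 0.244 for Epor (87.5), 0.220 for Tfrc (82.9) and 0.185 for Klf1 (71.3). Gata1, at 0.0456, stood at percentile 0.0135, and the median over those probes was 0.149. Gata1 and Tfrc values were means of 10 spots, and those of the other genes came from 1 spot. Gata1 ratios also lay near 0, from 0.06 to 0.30, without background subtraction. The part of these in its small SD was not tested. In fold terms Slc4a1 spanned 3.89-fold between the lowest pup, a hypo+ male at 0.87, and the highest, a control female at 2.83.

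Scan day accounted for much of this spread in some of the genes and little in others. Its share of the variance within groups was 92.6% for Alas2, 75.1% for Hbb-bt, 70.0% for Hba-a1, 52.3% for Epor, 43.7% for Klf1, 30.0% for Gata1, 28.6% for Slc4a1 and 11.8% for Tfrc, where the median probe had 32.5%. On the 8 arrays of scan day 2, Alas2 ran from 4.12 to 4.57, with a median of 4.31, and on the other 26 from 3.37 to 4.04, with a median of 3.76. The 2 sets of arrays did not overlap. Within groups, arrays of scan day 2 were higher by 0.57 for Alas2 (SE 0.056, adjusted p = 2.70e-08, limma) and by 0.71 for Hbb-bt (SE 0.094, adjusted p = 4.06e-06, limma). Under median centring these were 0.20 (adjusted p = 0.0231) and 0.22 (adjusted p = 0.0571), and with Cy5 alone 0.14 (adjusted p = 0.422) and 0.27 (adjusted p = 0.410). They were higher by 0.41 for Hba-a1 (SE 0.096, adjusted p = 0.0049, limma) and by 0.33 for Epor (SE 0.072, adjusted p = 0.00214, limma) after loess, but lower by -0.04 and -0.06 when arrays were centred on their median without loess. Those 4 of 8 genes were called, beside 9.72% of all probes called higher and 14.9% called in either direction. Slc4a1 (0.42, SE 0.17, adjusted p = 0.0906, limma), Tfrc (0.14), Klf1 (0.11) and Gata1 (0.03) were not called. Scan day comes from the file headers, and whether the pups, the RNA or the hybridisation also differed between days cannot be told apart.

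The genes whose pups lined up with Alas2 were tested by the slope of every probe on the Alas2 log2 ratio within treatment groups. Of the other 7 erythroid genes, only Hbb-bt was called, in males with a slope of 1.25 (SE 0.22, adjusted p = 0.00564, limma) and in females with 0.87 (SE 0.21, adjusted p = 0.0353, limma), beside 3.22% and 3.18% of all probes. With both sexes in 1 fit, 3 of the 7 were called (Hbb-bt, Hba-a1 and Epor), beside 12.2% of probes. The same fit called all 10 hepatocyte markers, Alb and Hnf4a among them, 9 of 11 Kupffer cell markers, 6 of 9 endothelial markers and 7 of 14 hepatic iron genes, all with positive slopes, but of 18 red cell membrane genes it called 2 with a positive and 1 with a negative slope. All 11 pancreatic acinar markers had positive slopes and none was called, and their summed Cy5 signal ran from 3554 to 141058 over the arrays. The part of these other cell types in the Alas2 values was not tested. The 10 genes most like Alas2 among 11546 included Acsm1, Ugt2b5, Cyp4f14, Elovl2, Gpld1, Pemt, Adcy4, Tst and Plg, with a mean r of the sexes from 0.923 to 0.957 over 17 males and 17 females. The 5 least like it were Gmeb2 (-0.777), Golim4, Pop4, Nppa and Dnm1 (-0.724). After scan day means were also removed, r of those 10 genes was 0.198 to 0.550. With scan day as a block no probe was called in males (2682 at an unadjusted p under 0.05, limma) or females (2300), Hbb-bt included.

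In Alas2 the arrays of scan day 2 thus did not overlap with the others after loess. Relations were read within the 26 arrays of the other scan days, as deviations from group means. Their Alas2 values spanned less (3.37 to 4.04) than those of all 34 arrays (3.37 to 4.57). There Alas2 had r = 0.028 (rho = 0.076) with Hbb-bt (permutation p = 0.911) and r = -0.051 with Hba-a1 (rho = -0.093, permutation p = 0.846). Hba-a1 and Hbb-bt moved together, with r = 0.772 and rho = 0.668 (two-sided permutation p = 0.00341, adjusted p = 0.0102 over 3 relations), and r = 0.685 without the 2 pups farthest from the median. Over all pairs of the 8 genes in each sex there were 56 relations, 48 of them with positive r. Of the 56, 2 had an adjusted p under 0.05, 10 an unadjusted one, and none was called in both sexes. The same counts were not made for pairs of other probes, so they do not set these genes apart. Over all probes the median r was 0.087 with Alas2 and 0.093 with Slc4a1. Over 9 hepatocyte markers it was 0.799 and 0.262. Hba-a1 with Hbb-bt gave r = 0.91 in males (rho = 0.89, permutation p = 0.00019, adjusted p = 0.0106, r = 0.90 without the 2 farthest pups) and r = 0.81 in females (rho = 0.67, permutation p = 0.00585, adjusted p = 0.0811). After scan day means were removed these were 0.70 and 0.88. The median r over the 56 relations went from 0.334 to 0.0375 once scan day means were removed.

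**Figure D3:**
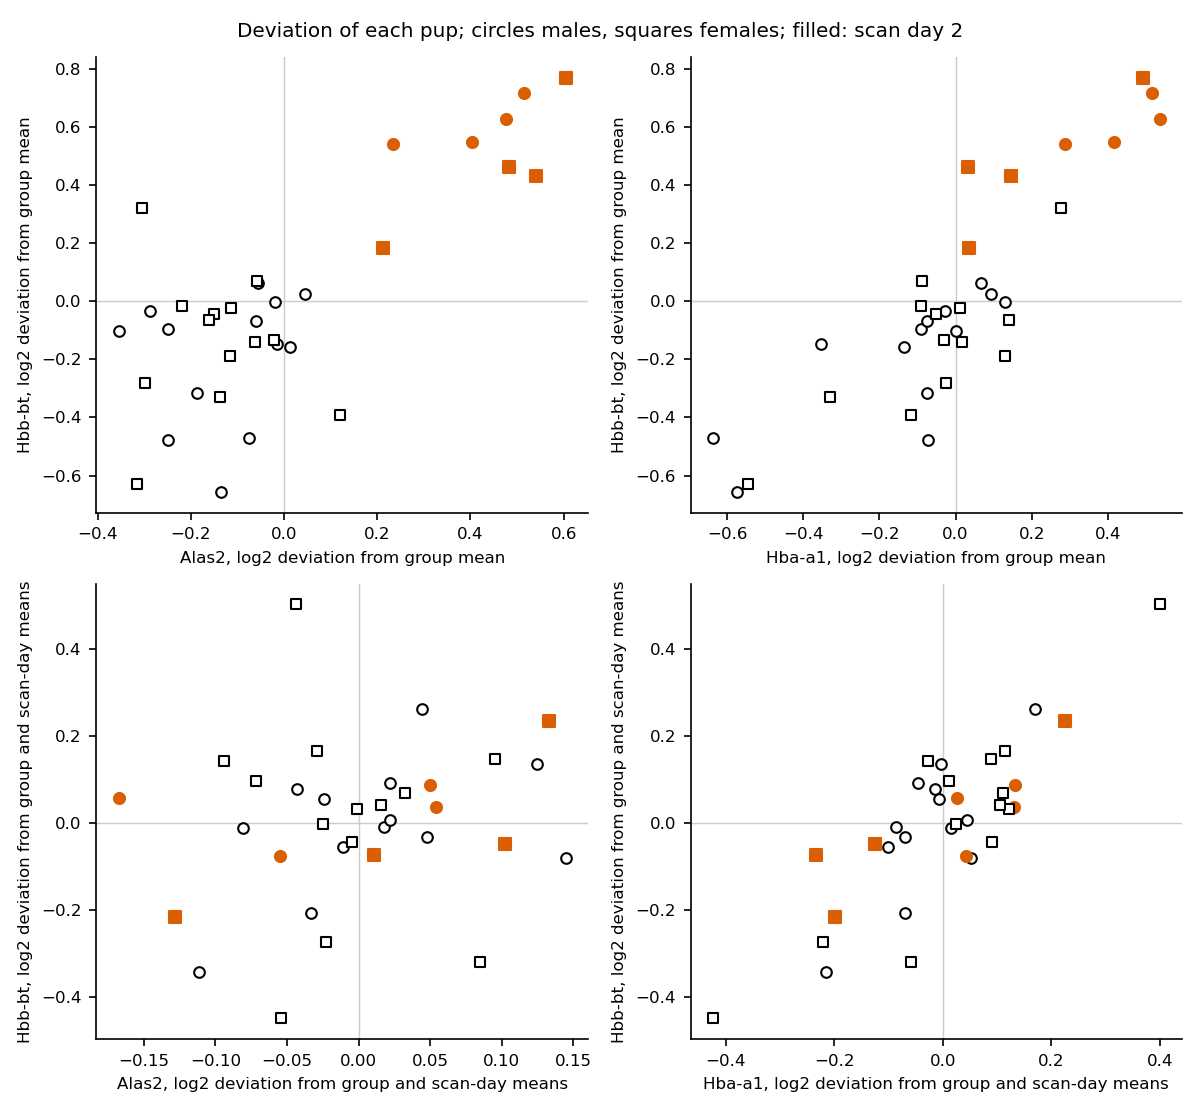
Deviation of each of the 34 pups from its group mean (top) and from group and scan-day means (bottom), in log2 units. Circles are males, squares females, and filled symbols scan day 2. Hba-a1 and Hbb-bt keep their relation in the lower plots (r = 0.835), while Alas2 and Hbb-bt do not (r = 0.190).

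The genes most like Slc4a1 were not those most like Alas2. Ranked in the same way, a ranking added after its spread had been seen, the 10 genes most like it included Isg20 (mean r = 0.824), Tspo2, Kcnj8, Rgs5, Ube2o, Fabp4, Dnmt3a, Abcc9 and Myo7b (0.699), and the 5 least like it ran from -0.664 (Sap18) to -0.605 (Sgpp1). Isg20 had r = 0.837 after scan day means were removed. Among the list genes Rhd, a blood group protein, had r = 0.645 before and 0.788 after removal of scan day means, but Rhag 0.096 and 0.018. After removal the median r was 0.332 over 6 membrane genes, -0.036 over 12 heme synthesis genes and 0.052 over all probes. It was 0.411 over 9 late enzymes, 0.208 over 12 transcription factors and -0.020 over 5 iron uptake genes. Outside the erythroid lists it was 0.504 over 11 megakaryocyte, 0.359 over 6 B cell and -0.220 over 9 hepatocyte markers. Of the members, Hba-a1 and Hbb-bt then had r = -0.150 and -0.211, and Alas2, Epor, Klf1, Gata1 and Tfrc 0.108 to 0.349. Regressed on Slc4a1 with both sexes in 1 fit, 15 probes were called (0.0364%), among them Tspo2 and Kel, and none of the other erythroid members. With scan day as a block 7 were called (0.017%), Rhd among them. In that fit all 18 membrane genes had positive slopes, with a median of 0.098 against 0.0057 over all probes, but 6 of the 18 were well above background on all arrays. The share of all probes with a positive slope was not counted. Before scan day means were removed, mean r with Slc4a1 was negative for Gypc (-0.065), Xk (-0.052) and Add2 (-0.151) and positive for the other membrane genes. For Xk it was 0.496 in males and -0.601 in females. Markers of other blood cells had the same sign in the fit with scan day as a block, with 13 of 13 megakaryocyte (median 0.174), 12 of 13 neutrophil (0.226) and 9 of 9 B cell markers (0.159) positive, as had 8 of 9 endothelial ones. Their part in the Slc4a1 values was not tested. By sex the calls were 0 in males (2422 unadjusted, limma) and 6 in females (0.0146%).

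Animal numbers of a male and a female of the same treatment began with the same 2 digits in 14 pairs. What these digits mean is not stated in the labels. In Slc4a1 the deviations of the paired pups from their group means correlated at r = 0.729 (rho = 0.776, two-sided permutation p = 0.0056, adjusted p = 0.0448 over the 8 genes), with r = 0.697 without the 2 farthest pairs. The control pair at 2.45 (male) and 2.83 (female) and the hypo pair at 2.19 and 2.54 were the highest of their groups, and the hypo pair at 0.97 and 1.03 the lowest. Both pups lay on the same side of their group means in 9 of 14 pairs. The value stood at percentile 99.2 of all probes well above background, whose median was 0.079. Among the 11 pairs scanned on different days r was 0.75 (permutation p = 0.0957, adjusted p = 0.383), and after scan day means were removed from all 14 it was 0.38. That value stood at percentile 88.9 of the same probes, where Tfrc stood at 89.3. For Slc4a1 over all 14 pairs the adjusted p was over the threshold when arrays were centred on their median (0.290), from the scanner software's own log ratios (0.0914) or from Cy5 alone (0.674). None of the other 7 erythroid genes was called, Tfrc having r = 0.443 and Hbb-bt r = 0.0074. Among the 11 pairs scanned on different days Tfrc had r = 0.70 (permutation p = 0.0147, adjusted p = 0.117).

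**Figure D4:**
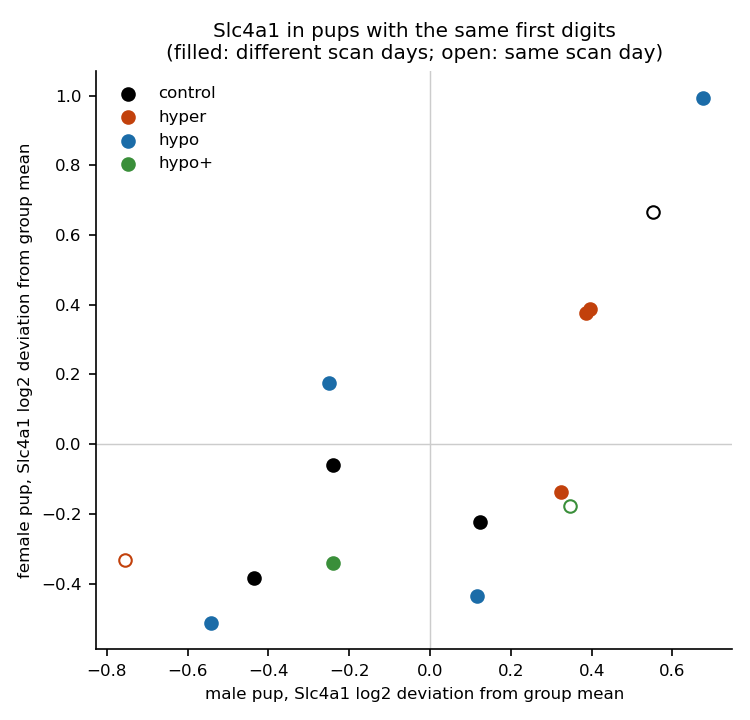
Slc4a1 log2 deviation from the group mean in the male (horizontal) and the female (vertical) of 14 pairs with the same first digits, coloured by treatment. Filled points are the 11 pairs scanned on different days and open points the 3 scanned on the same day, and r over all pairs was 0.729.

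Between the sexes, 0 of the 8 erythroid genes differed over the 4 treatments (limma, 0 unadjusted), beside 0.0996% of all probes. All but 1 of the 11 slides held a single sex, scan day 1 held only males and scan day 6 only females. Sex can thus hardly be told apart from slide in this comparison. Female minus male ran from -0.13 for Tfrc to 0.26 for Slc4a1 on the log2 scale, with SEs from 0.0196 to 0.156.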

How the data were processed

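Liver RNA of 34 pups was measured against a common reference on 2-colour Agilent arrays, and replicates are separate pups. The authors scanned the arrays and extracted them with Feature Extraction 10.1.1.1, and deposited the median signal intensity of each spot in both channels and the software's log10 ratio. Their series table holds log2 ratios after their own normalization, and serves as an alternative. From the deposited median intensities, log2(Cy5/Cy3) was taken without background subtraction and normalized by loess within arrays (limma 3.58.1, R 4.3.3). Control and outlier spots were left out and spots of a probe averaged. Sexes were fitted separately with 4 treatment groups each (lmFit, eBayes), with Benjamini-Hochberg adjustment over all 41174 probes and a threshold of 0.05. Gene symbols came from RefSeq accessions, which matched 16806 of 33541 probe names. A gene with several probes was read by the brightest. Correlations used deviations from group means and 100000 permutations within treatments (Python 3.11.15). Scripts were tested on simulated data. Members and lists were chosen with earlier results of these data known. Text names members, called list genes, and the 10 genes most and 5 least like Alas2. Some of these are not reported here. Alternatives covered background correction, normalization, value source, probe filter, slide, scan day, sex and left-out arrays. Normexp ran on median signals, since mean signals were not used here.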

Additional observations from a re-analysis of the deposited data

Results flagged for a closer look

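In 2 of 56 combinations of a gene and a group of 4 or 5 pups, 1 pup lay far from the others relative to the group's range. For a single combination chance gives about 1 in 20, but the same pups recur across genes, so the 56 are not independent. The hypo+ male pup 546 had an Hba-a1 log2 ratio of 4.36, and the other 3 hypo+ males lay between 3.93 and 4.00. The hypo female pup 721 had an Alas2 log2 ratio of 4.52, and the other 4 hypo females lay between 3.60 and 3.85. Both arrays were scanned on day 2.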

How the results depend on the processing

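All 248 recomputed values of the 8 treatment comparisons gave 0 called erythroid genes, so none of those counts moved. The other counts did move. The number of erythroid genes called with Alas2 (1 in each sex) was 0 in both sexes under median centring, with Cy5 alone, with slide or scan day as a block, with Slc4a1 in place of Alas2, and, chosen after seeing the data, without the arrays of scan day 2. In males it was 2 with normexp, with the authors' log2 table and with Hbb-bt in place of Alas2. In females it was 3 with normexp and 0 with the authors' table, the software's log ratio and Hbb-bt in place of Alas2. It was 3 with both sexes in 1 fit. Leaving out 1 pup gave 0 to 2 in both sexes, 0 in males without hypo pup 576 and in females without hypo+ pup 543, control pup 831 or 394, hyper pup 585, or hypo pup 721 or 893. The slope of Hbb-bt in females turned to -0.192 without scan day 2. Of the 8 erythroid genes, 4 were called on scan day 2, a contrast added after seeing the data. That count over all 8 genes was 2 under median centring, 1 with Cy5 alone, and 4 or 5 when 1 array was left out. Under median centring Hba-a1 was at -0.0423 and Epor at -0.0555. The 2 pairwise correlations became 7 with normexp, 4 with the software's log ratio, 6 with Cy5 alone and 0 under median centring. The call of Slc4a1 in paired pups fell to 0 under median centring, the software's log ratio and Cy5 alone. The cause was not tested. Treatment groups share no replicate number, so only slide, scan day and the first 2 digits of the animal number served as blocks. The number of arrays, 3 to 5 per group, limits precision, and the p-values measure only the spread between these pups.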
